A study of Sus scrofa with 30 samples.

Results

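The genes of DNA replication and cell division were followed in whole pig embryos during the days on which the spherical blastocyst grows into a long filament. The set held 45 genes, chosen by symbol from a fixed list of replication, mitosis, cyclin and inhibitor genes and matched to NCBI gene identifiers, and all 45 were among the 13103 genes counted in the table of all embryos. They were sorted by role into 14 replication genes, 12 cyclins and cyclin-dependent kinases (CDK), 11 mitosis genes, 5 inhibitors and 3 activators of cell cycle entry. RNA of 30 single embryos of *Sus scrofa* had been sequenced, taken on Day 8, Day 10 or Day 12 after insemination, and each day had 5 females and 5 males. All came from German Landrace and Pietrain cross gilts whose cycles had been synchronized with altrenogest, PMSG and human chorionic gonadotropin before insemination by a single Pietrain boar. The embryos were flushed from the uterus with buffered saline, and the groups differed in day and sex. Each library was made from a whole embryo, so trophectoderm, hypoblast and epiblast RNA were mixed, and fewer cells of a type could not be told apart from less RNA per cell. The 10 embryos of a day came from at most 4 gilts, so that embryos shared mothers, and each gilt gave embryos of 1 day. The gilt of each embryo was not given, so the p-values measure the spread between these embryos and not between litters.

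Cells copy their DNA once per division by a fixed order of events. The origin recognition complex, with CDC6 and CDT1, loads the ring-shaped MCM helicase onto origins, and geminin (GMNN) binds CDT1 and blocks renewed loading. Cyclin D with CDK4 or CDK6 phosphorylates the retinoblastoma protein RB1, which frees E2F factors to switch on S phase genes, and cyclin E and cyclin A with CDK2 start and sustain DNA synthesis. Cyclin B with CDK1 drives mitosis, with WEE1 as a brake on the CDK and the CDC25 phosphatases as its opponents. The proteins of CDKN1A, CDKN1B and CDKN2C bind CDK complexes and slow the cycle. The porcine embryo is known to form its filament largely by reshaping and moving cells of the trophectoderm, so division genes are of interest at this stage.

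Total counts ran from 6068212, in d12_f_245, to 34002508, and 3 counts stood for 0.434 CPM (read counts of a gene scaled to library size) in the smallest library. No pair from 1 day and 1 sex agreed within sampling noise, since the lowest chi-square per degree of freedom over 60 pairs was 7.64. All 8 trophectoderm markers were counted, and their summed level had a median of 23794 CPM on Day 8, 42415 CPM on Day 10 and 13240 CPM on Day 12, most of it from the keratins KRT8 and KRT18. Markers of other cell types moved over the same days. The 5 epiblast markers summed to medians of 340 CPM, 362 CPM and 756 CPM, most of it DNMT3B, while NANOG and SOX2 were at 3 counts or fewer in every Day 12 embryo. The 6 hypoblast markers summed to 297.2 CPM, 177 CPM and 464 CPM. Among them GATA6 had means of 142, 55.5 and 44.5 CPM on the 3 days. The other hypoblast markers had higher means on Day 12 than on Day 10, with PDGFRA the highest at 332 ± 283 CPM (SD). Of 5 mesoderm markers 2 were counted, at 2.32 CPM, 69.2 CPM and 1064 CPM, nearly all HAND1 on the later days, a gene that trophoblast is also known to express. The part of these changes in the results that follow was not tested. Blood and uterine epithelium markers, of which 3 of 7 each were counted, summed to at most 18.4 and 16.8 CPM in any embryo. On Day 10, d10_m_453 and d10_f_454 stood apart from the other 8 embryos on the first principal component of all genes, which held 34.4% of the variance, with scores of 64.8 and 59.3 against a range of -32.0 to 5.70. That component was taken for Day 10 alone. By mean correlation of log2 levels with the other embryos of its day, d12_f_245 (0.901) and d12_f_271 (0.931) were the lowest of all embryos. Embryos d10_m_453 and d10_f_454 were at 0.958 and 0.961. Results that rest on d10_m_453 and d10_f_454 are given with and without them. Embryos d12_f_245 and d12_f_271 were left out 1 at a time, and together only in the fit of males alone.

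As a share of all counts, the 45 genes fell from 0.508% ± 0.0148 (SD, n = 10) on Day 8 to 0.332% ± 0.0693 on Day 10, and stood at 0.367% ± 0.0622 on Day 12. The lowest Day 8 embryo, at 0.488%, lay above the highest Day 10 embryo, at 0.435%. On Day 10 the share was lowest in d10_f_454 (0.217%) and d10_m_453 (0.237%) and highest in d10_f_433, and on Day 12 it was highest in d12_m_307 (0.491%) and lowest in d12_f_289 (0.284%).

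Changes between days were tested in edgeR over all 13103 genes, with CPM scaled by TMM factors. A gene was called a differentially expressed gene (DEG) where its false discovery rate (FDR) was under 0.001 and its log2 fold change was beyond 1, and a gene with an FDR under 0.05 is said to have risen or fallen. From Day 8 to Day 10, 22 of the 45 genes fell and 4 rose, and the 4 that rose were all inhibitors. Over all genes, 26.7% fell and 29.4% rose at that FDR. Among these were 3 DEG lower (ORC1, CDK6 and CDC25A) and 2 DEG higher (CDKN1A and CDKN1B), where 4.2% of all genes were DEG lower and 9.88% were DEG higher. The median log2 fold change of the 45 genes was -0.31, against 0.03 over all genes.

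From Day 10 to Day 12, 14 of the 45 genes fell and 8 rose, against 27.1% and 32.6% of all genes. The DEG were CCND1, CDKN1A and WEE1, all higher, and CCND3, lower, where 14.9% of all genes were DEG higher and 8.39% DEG lower. The median log2 fold change of the set was -0.06, against 0.04 over all genes. With Day 12 set against Day 8, 24 fell and 7 rose, against 33.3% and 40.1% of all genes, and the DEG were 7 lower and 4 higher, against 10.4% and 22% of all genes. These 3 comparisons share embryos, so that they are not independent of each other. In all, 13 of the 45 genes were DEG in at least 1 comparison, and 9 passed an FDR of 0.05 in none. The matching shares of all genes were not computed, so these counts only describe the set.

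**Figure D1:**
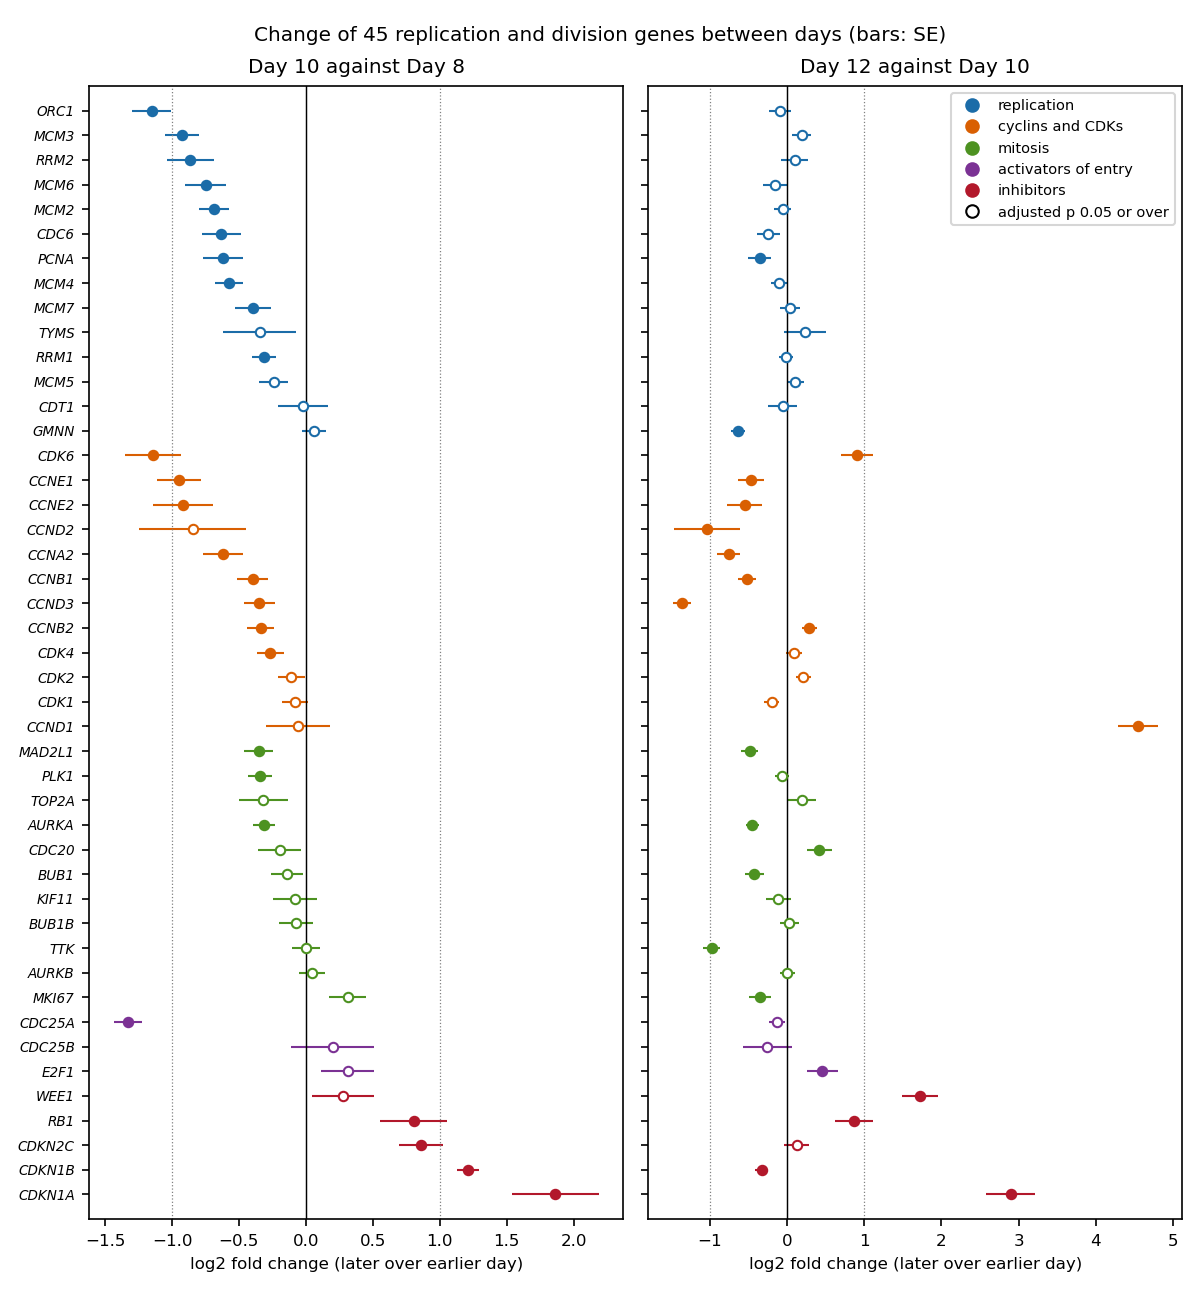
Log2 fold change of each of the 45 genes from Day 8 to Day 10 (left) and from Day 10 to Day 12 (right), with bars for the standard error (SE), 10 embryos a day, colours for the 5 roles, filled points for an adjusted p under 0.05 and dotted lines at a log2 fold change of 1 either way. In the left panel the replication genes lie mostly left of 0 and the inhibitors right of it; in the right panel the replication genes lie close to 0, CCND1 lies at 4.55 and CCND3 at -1.36.

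The scaling moved these medians. With library size alone, the median log2 fold change of all genes shifted to -0.15 for Day 10 against Day 8 and 0.24 for Day 12 against Day 10. The set's medians shifted with it, to -0.48 and 0.13, and the medians of the replication and mitosis genes for the later interval turned from -0.05 and -0.11 to 0.15 and 0.08. Relative to the median of all genes, the set stood at -0.34 and -0.11 with TMM factors and at -0.33 and -0.11 with library size alone. The DEG of all genes split into 1027 higher and 811 lower and into 2396 higher and 891 lower with library size alone, where TMM factors gave 1295 and 550, and 1951 and 1099.

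Most replication genes fell between Days 8 and 10. Of the 14, 10 fell (71.4%, against 26.7% of all genes) and none rose, with a median log2 fold change of -0.60. Between Days 10 and 12 PCNA and GMNN fell (14.3%, against 27.1% of all genes) and none rose. ORC1, the largest subunit of the origin recognition complex, lies at chr6:159819302-159852306 of the Sscrofa11.1 assembly. Its level was 159 to 186 CPM on Day 8 (median 178), 43.4 to 112 CPM on Day 10 (median 83.2) and 49.2 to 112 CPM on Day 12 (median 74.8). Every Day 8 embryo was above every later embryo. The change to Day 10 was -1.15 ± 0.15 (SE) on the log2 scale, a 2.22-fold fall (adjusted p = 1.07e-07), and the difference between Days 10 and 12 was -0.08 ± 0.15 (adjusted p = 0.634). ORC1 had the smallest spread of all 45 genes on Day 8, with an SD of 0.069 on the log2 scale.

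CDC6, which with CDT1 brings the helicase to the origin complex, ranged from 44.3 to 62.9 CPM on Day 8, 23.3 to 42.7 CPM on Day 10 and 14.2 to 43.2 CPM on Day 12. It fell by 0.63 ± 0.15 on the log2 scale to Day 10 (adjusted p = 0.00048), without overlap of the days. CDT1 had a median of 43.5, 45.02 and 34.9 CPM on the 3 days and passed the test in no comparison, and on Day 12 it reached 83.3 CPM in d12_f_245. Its inhibitor GMNN had medians of 39.4 and 44.8 CPM on Days 8 and 10, and on Day 12 it fell to 27.4 CPM, a change of -0.64 ± 0.09 from Day 10 (adjusted p = 3.97e-07). The log2 ratio of CDT1 to GMNN within an embryo averaged 0.11 ± 0.15 (SD, n = 10), 0.01 ± 0.34 and 0.49 ± 0.70 on Days 8, 10 and 12, with overlap of the days throughout.

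The 6 MCM subunits make up 1 ring, and their changes differed in size. From Day 8 to Day 10, MCM3 fell most (-0.93 ± 0.13, adjusted p = 3.42e-07), followed by MCM6 (-0.75 ± 0.15), MCM2 (-0.69 ± 0.11), MCM4 (-0.58 ± 0.10) and MCM7 (-0.39 ± 0.13). MCM5 had a log2 fold change of -0.24 ± 0.11 that missed the threshold (adjusted p = 0.0609). MCM3 went from 155 to 223 CPM on Day 8 (median 199) to 60.5 to 138 CPM on Day 10 (median 113), with no overlap, and was at 85.2 to 150 CPM on Day 12. Set against the mean of the other subunits in the same embryo, MCM3 changed by -0.42 on the log2 scale to Day 10 and by 0.26 from Day 10 to Day 12, with no overlap of Days 8 and 10. MCM5 and MCM7 changed by 0.44 and 0.24 relative to the others over the earlier interval. None of the 6 subunits passed the test between Days 10 and 12 with all embryos in the fit. Without d10_m_453 and d10_f_454, MCM7 had a log2 fold change of -0.27 to Day 10 (adjusted p = 0.0730). MCM7 overlaps AP4M1 in the annotation, a counted gene that rose by 0.94 on the log2 scale from Day 8 to Day 10 while MCM7 fell, and the strand setting of the counting was not given in the sources used here.

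PCNA, the sliding clamp of the polymerases, fell at both steps, from a median of 204 CPM to 143 CPM and 108.5 CPM, with log2 fold changes of -0.62 ± 0.15 (adjusted p = 0.000757) and -0.35 ± 0.15 (adjusted p = 0.041). The later fall was lost in 11 of the 30 fits that left out 1 embryo. The subunits of ribonucleotide reductase, which makes the deoxynucleotides, fell by different amounts. RRM2, the subunit tied to S phase, fell by 0.86 ± 0.17 on the log2 scale to Day 10 (adjusted p = 0.000113) and had a level of 373 to 514 CPM on Day 8, 129.1 to 319 CPM on Day 10 and 144 to 396 CPM on Day 12. RRM1 fell by 0.31 ± 0.09 (adjusted p = 0.00447). Within embryos the log2 ratio of RRM1 to RRM2 shifted by 0.62 from Day 8 to Day 10 and by -0.13 from Day 10 to Day 12, with overlap of neighbouring days.

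**Figure D2:**
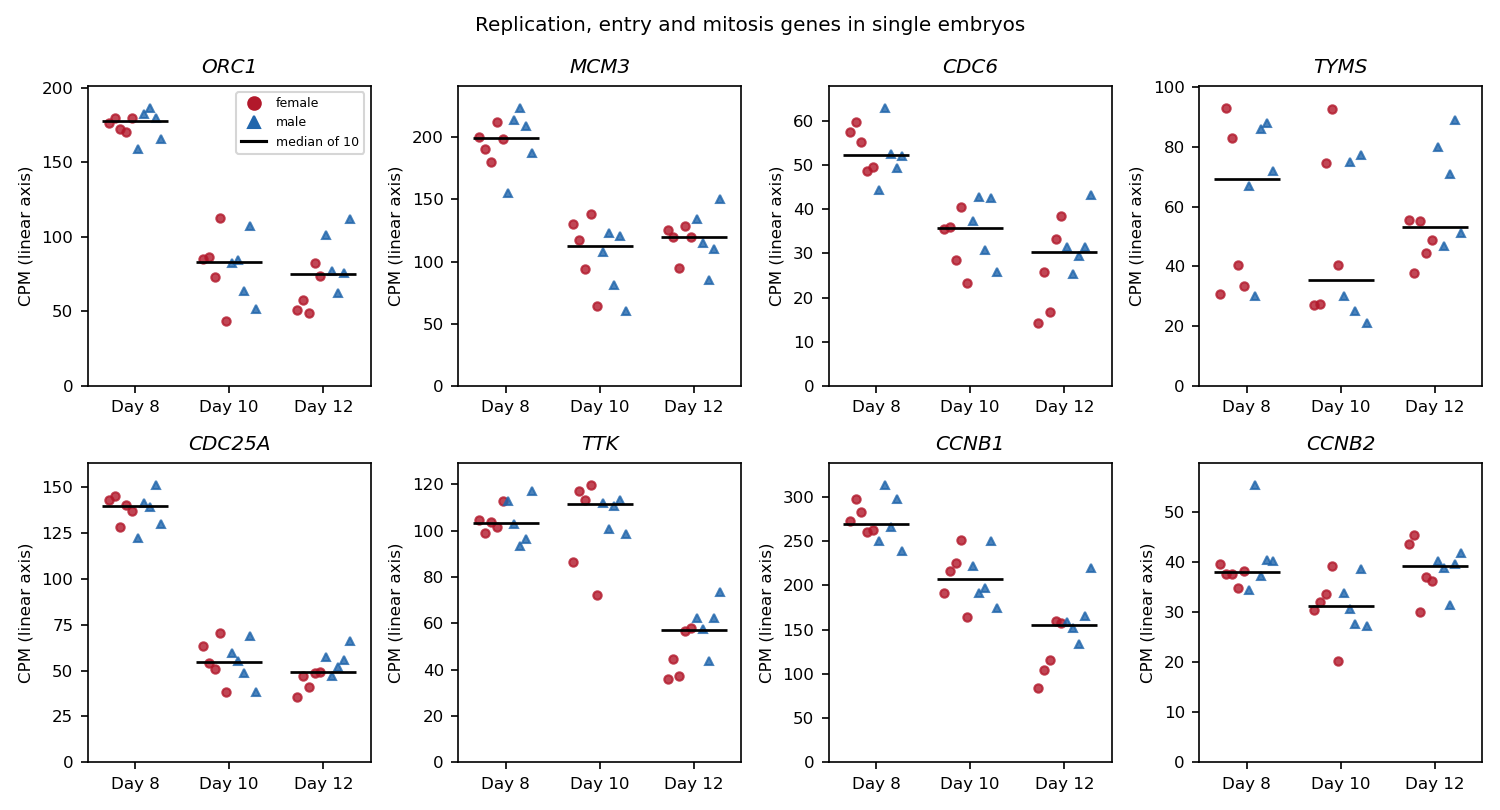
CPM of 8 replication, entry and mitosis genes in each of the 30 embryos, by day (circles female, triangles male, lines the median of 10 embryos, linear axes from 0). ORC1, MCM3, CDC6 and CDC25A drop without overlap from Day 8 to Day 10, TTK and CCNB1 are lowest on Day 12, and TYMS lies in separate low and high ranges on Days 8 and 10.

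TYMS, the thymidylate synthase, had a median of 69.3 CPM on Day 8, 35.3 CPM on Day 10 and 53.1 CPM on Day 12 and passed the test in no comparison. Its values within a day were not spread evenly. On Day 8 they ran from 30.1 to 40.3 CPM in 4 embryos and from 66.8 to 92.9 CPM in the other 6. On Day 10 they ran from 21.0 to 40.5 CPM in 6 embryos and from 74.7 to 92.7 CPM in the other 4, and both ranges held embryos of both sexes on both days. The gap was a factor of 1.66 and 1.84, the widest of the 45 genes on either day with at least 3 embryos on either side. On Day 12 the values ran from 37.7 to 89.0 CPM, and the SD of log2 CPM was 0.68, 0.82 and 0.39 on the 3 days.

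Among the activators of entry, CDC25A, a phosphatase that removes the inhibitory phosphate from CDK, had the largest fall of the 45 genes over the earlier interval. It was at 122 to 151 CPM on Day 8 (median 139), 38.1 to 70.3 CPM on Day 10 (median 54.6) and 35.6 to 66.2 CPM on Day 12 (median 49.0). The Day 8 embryos stood above all others, and those of Days 10 and 12 overlapped. The log2 fold change was -1.33 ± 0.11, a 2.51-fold fall (adjusted p = 1.06e-11), and -0.13 ± 0.10 thereafter (adjusted p = 0.296). Without d10_m_453 and d10_f_454 the later change was -0.23 and passed the test (adjusted p = 0.0314). CDC25B, a paralogue that acts at mitotic entry, had medians of 7.17, 9.05 and 6.36 CPM and passed no test, with a spread on Day 12 from 1.44 to 14.8 CPM. E2F1, a transcription factor of S phase genes, had medians of 4.97, 6.03 and 6.91 CPM and rose by 0.77 ± 0.20 on the log2 scale from Day 8 to Day 12 (adjusted p = 0.000893).

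The D cyclins moved in opposite directions at the later step. CCND1, at chr2:3621242-3633380, was at 0.774 to 3.94 CPM on Day 8 (median 2.03) and 1.13 to 3.82 CPM on Day 10 (median 1.78), which were 15 to 106 and 20 to 84 counts. On Day 12 it was at 28.4 to 67.9 CPM (median 47.0), and every Day 12 embryo was far above every earlier one. The log2 fold change from Day 10 to Day 12 was 4.55 ± 0.26, or 23.4-fold (adjusted p = 8.52e-16), the largest of the 45 genes, while that from Day 8 to Day 10 was -0.06 ± 0.24 (adjusted p = 0.856). It was 3.92 to 5.05 over the 40 alternative fits.

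CCND3, at chr7:37087336-37182462, moved the other way. It was at 84.4 to 163 CPM on Day 8 (median 130), 77.6 to 132 CPM on Day 10 (median 101) and 31.3 to 50.9 CPM on Day 12 (median 35.5). The Day 12 embryos lay below all others, with a log2 fold change of -1.36 ± 0.12 from Day 10, or 2.57-fold lower (adjusted p = 2.21e-11), after a smaller fall of 0.35 ± 0.12 to Day 10 (adjusted p = 0.0118). Its annotated span overlaps TAF8, which had a log2 fold change of 0.28 from Day 10 to Day 12. The log2 ratio of CCND1 to CCND3 within an embryo shifted by 0.31 from Day 8 to Day 10 and by 5.87 from Day 10 to Day 12, where the days did not overlap.

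CCND2, at chr5:66092483-66114575, was close to the limit of detection, at 17 to 42 counts on Day 8, 7 to 51 on Day 10 and 1 to 17 on Day 12. Of the 10 Day 12 embryos, 3 had 3 counts or fewer. Its medians were 1.40, 0.777 and 0.451 CPM, and the fall from Day 8 to Day 12 was 1.88 ± 0.43 on the log2 scale (adjusted p = 0.00024). Of the CDK partners, CDK6 (chr9:72510858-72765631) fell and returned. It was at 20.9 to 48.0 CPM on Day 8 (median 41.2), 10.1 to 27.1 CPM on Day 10 (median 15.6) and 19.2 to 60.7 CPM on Day 12 (median 30.2), with overlap of neighbouring days. The log2 fold changes were -1.14 ± 0.21 (adjusted p = 3.12e-05) and 0.91 ± 0.21 (adjusted p = 0.000371), and Day 12 differed from Day 8 by -0.23 ± 0.21 (adjusted p = 0.321). The reference table lists this porcine gene model as a long noncoding RNA. CDK4 had medians of 193, 179 and 170 CPM, with a fall of 0.27 ± 0.10 to Day 10 (adjusted p = 0.0248) that was lost without d10_m_453 or without d10_f_454 (adjusted p of 0.0541 to 0.0546). The log2 ratio of CDK4 to CDK6 within embryos shifted by 0.89 and then by -0.79.

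Cyclins E and A fell at both steps. CCNE1 had medians of 51.7, 26.5 and 19.6 CPM and CCNE2 of 20.2, 10.7 and 7.62 CPM. Their log2 fold changes to Day 10 were -0.95 ± 0.16 (adjusted p = 1.56e-05) and -0.92 ± 0.22 (adjusted p = 0.000857), both without overlap of the days. From Day 10 to Day 12 their log2 fold changes were smaller, at -0.46 and -0.55. The later falls passed an FDR of 0.05 in 38 of the 40 alternative fits for CCNE1 and in 30 for CCNE2. From Day 8 to Day 12 they fell 2.65-fold and 2.76-fold. The log2 ratio of CCNE1 to CCNE2 held at 1.29 ± 0.35 and 1.29 ± 0.35 on Days 8 and 10 and was 1.45 ± 0.28 on Day 12. CCNE1 lies at chr6:39919541-39933224 and CCNE2 at chr4:41802090-41821870, where its span overlaps INTS8, which fell by 0.65 and 0.27 over the intervals. CCNA2 (chr8:102260346-102266274) was at 136.2 to 163 CPM on Day 8, 59.5 to 122 CPM on Day 10 and 34.3 to 104 CPM on Day 12. Its log2 fold changes were -0.62 ± 0.15 (adjusted p = 0.000773) and -0.75 ± 0.15 (adjusted p = 6.59e-05). CCNA2 overlaps EXOSC9, which fell by 0.35 and 0.54 on the log2 scale over the same intervals.

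Cyclin B genes parted on Day 12. CCNB1, the main mitotic cyclin, had medians of 269, 207 and 155 CPM and fell at both steps, by 0.40 ± 0.12 (adjusted p = 0.00463) and 0.52 ± 0.12 (adjusted p = 0.000288) on the log2 scale. CCNB2 fell with it to Day 10, from a median of 38.1 to 31.4 CPM (-0.34 ± 0.10, adjusted p = 0.00547), and rose to 39.3 CPM on Day 12 (0.29 ± 0.10, adjusted p = 0.0134). Without embryos d10_m_453 and d10_f_454 this rise was 0.21 (adjusted p = 0.0562). The log2 ratio of CCNB1 to CCNB2 was 2.79 ± 0.15 on Day 8, 2.74 ± 0.11 on Day 10 and 1.88 ± 0.45 for Day 12. Every Day 12 embryo lay below every Day 10 embryo. Their kinase CDK1 had medians of 127, 125 and 107 CPM, and it fell by 0.27 ± 0.10 on the log2 scale from Day 8 to Day 12 (adjusted p = 0.0114). CDK2 passed no test, with medians of 32.0, 29.7 and 32.1 CPM.

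**Figure D3:**
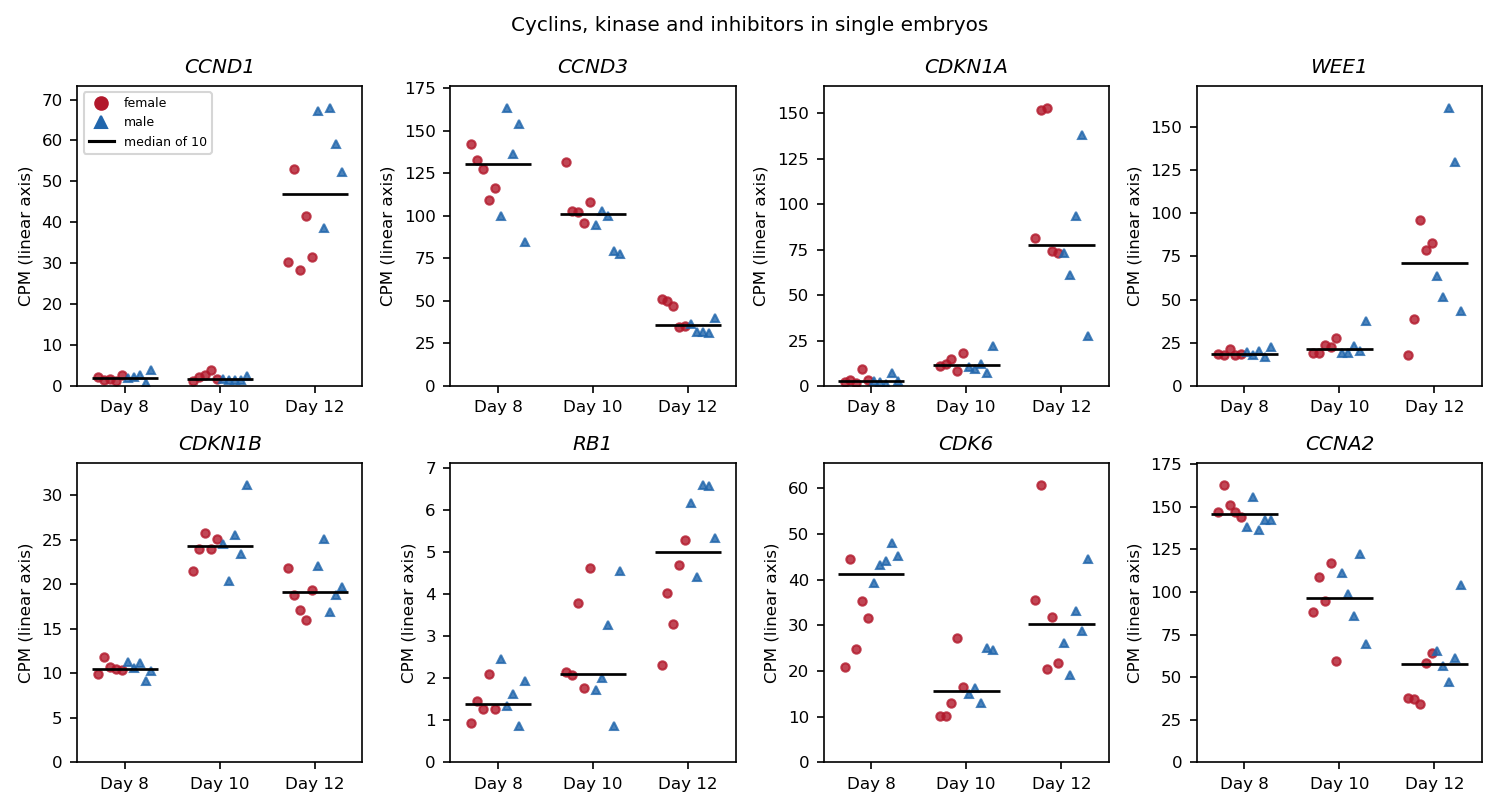
CPM of 8 cyclin, kinase and inhibitor genes in each of the 30 embryos, by day (circles female, triangles male, lines the median of 10 embryos, linear axes from 0). CCND1 is at 3.94 CPM or lower on Days 8 and 10 and at 28.4 CPM or higher on Day 12, CCND3 drops on Day 12, CDKN1A climbs at each step, and CDK6 is lowest on Day 10.

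Of the 11 mitosis genes, 3 fell and none rose from Day 8 to Day 10, with a median log2 fold change of -0.14. This was 27.3% falling, close to the 26.7% of all genes. From Day 10 to Day 12, 5 fell (45.5%, against 27.1% of all genes) and 1 rose, with a median of -0.11. No mitosis gene was a DEG. The difference between the groups of genes was not tested, since the genes of a group are not replicates. MAD2L1, a spindle checkpoint protein, fell at both steps (-0.35 ± 0.11, adjusted p = 0.00551, and -0.48 ± 0.11, adjusted p = 0.000248), as did the spindle kinase AURKA (-0.31 ± 0.08, adjusted p = 0.00163, and -0.44 ± 0.08, adjusted p = 2.24e-05). AURKA overlaps CSTF1, which fell by 0.90 and 0.23 on the log2 scale over these intervals. PLK1, a kinase of mitotic entry and exit, fell to Day 10 alone (-0.34 ± 0.09, adjusted p = 0.00198).

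TTK, the kinase that starts the spindle checkpoint, had the largest change among mitosis genes. It was at 93.5 to 117 CPM on Day 8 (median 103.3), 72.4 to 120 CPM on Day 10 (median 111.4) and 35.9 to 73.5 CPM on Day 12 (median 57.3). Days 8 and 10 overlapped and their log2 difference was 0.00 ± 0.11, and of all Day 12 embryos only d12_m_307 was above the lowest Day 10 embryo, d10_f_454. The log2 fold change from Day 10 to Day 12 was -0.97 ± 0.11 (adjusted p = 4.39e-09). BUB1, another checkpoint kinase, fell by 0.42 ± 0.12 (adjusted p = 0.00295), while BUB1B had medians of 46.5, 46.9 and 49.4 CPM and passed no test. Their log2 ratio was 0.84 ± 0.17, 0.78 ± 0.30 and 0.29 ± 0.18 on Days 8, 10 and 12.

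The proliferation marker MKI67 had medians of 80.7, 101 and 81.9 CPM. Its log2 fold change to Day 10 was 0.31 ± 0.14 (adjusted p = 0.0565), and it fell by 0.35 ± 0.14 to Day 12 (adjusted p = 0.0316). CDC20, an activator of the anaphase-promoting complex, rose by 0.42 ± 0.16 from Day 10 to Day 12 (adjusted p = 0.0268) to a median of 151 CPM. AURKB, KIF11 and TOP2A passed no test between days. AURKB, a kinase of chromosome attachment and cell cleavage, had medians of 21.7, 23.6 and 22.8 CPM and log2 fold changes of 0.05 and 0.00.

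Of the changes from Day 10 to Day 12, 6 lay so near the FDR threshold that leaving out any 1 of several embryos removed the call. PCNA lost its call without d12_f_245, d12_f_271, d12_m_276, d12_f_289, d12_f_297, d10_f_315, d10_f_317, d10_m_318, d10_m_321, d10_f_433 or d10_m_435 (adjusted p up to 0.0896), and E2F1 without d12_f_245, d12_f_271, d12_m_286, d10_m_333, d10_f_336, d10_f_433, d10_m_435, d10_m_453 or d10_f_454 (up to 0.129). CCND2 lost it without d12_m_275, d12_m_276, d12_m_286, d12_f_299, d10_m_321, d10_f_336 or d10_f_433 (up to 0.146), and CCNE2 without d12_f_245, d12_f_271, d12_m_276, d12_f_289, d10_m_321, d10_f_433 or d10_m_435 (up to 0.0728). MKI67 lost it without d12_f_271, d12_m_276, d12_m_286, d10_f_433 or d10_f_454 (up to 0.0790), and CDC20 without d12_f_245, d10_m_453 or d10_f_454 (up to 0.0917). CDK1 (-0.19 ± 0.10 with all embryos) passed without d12_m_286, d10_f_315 or d10_f_454, with an adjusted p down to 0.0333. CDK2 (0.22 ± 0.10) passed without d12_f_245, d12_m_275 or d10_m_333, with an adjusted p down to 0.0266. For the earlier interval MKI67 passed without d08_m_103, d08_f_130, d08_m_133, d08_m_136, d12_f_271, d10_m_333 or d10_f_336 and MCM5 without d08_m_103, d08_m_136, d12_f_271, d10_f_315 or d10_m_321 (down to 0.0188 and 0.0329). CCND2 (-0.85 ± 0.40 to Day 10 with all embryos) passed without d12_m_286 or d10_f_433, down to 0.0102. Day 12 embryos bear on the earlier interval only through the shared fit and scaling. ORC1, CDC25A, CDK6, CDKN1A and CDKN1B for the earlier interval and CCND1, CCND3, CDKN1A and WEE1 for the later one were DEG in all 30 of these fits.

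Inhibitors were the group with the largest median rise from Day 8 to Day 12, a log2 fold change of 1.67. All 5 rose in that comparison (100%, against 40.1% of all genes). Of these, 3 were DEG higher, where 22% of all genes were. From Day 10 to Day 12, 3 inhibitors rose (60%, against 32.6% of all genes) and 1 fell (20%, against 27.1%). Over that interval 3 of the 12 cyclins and CDK also rose (25%, against 32.6% of all genes) and 6 fell (50%, against 27.1%). From Day 8 to Day 10, 8 of these 12 fell (66.7%, against 26.7% of all genes) and none rose. CDKN1A, at chr7:32354776-32363771, encodes a CDK inhibitor that halts the cycle before S phase. It was at 1.10 to 9.09 CPM on Day 8 (median 2.75), 7.30 to 21.8 CPM on Day 10 (median 11.3) and 27.4 to 153 CPM on Day 12 (median 77.7). Only d08_f_129 was above a Day 10 embryo, and Days 10 and 12 did not overlap. The level rose 3.64-fold and then 7.45-fold, with log2 fold changes of 1.86 ± 0.32 (adjusted p = 1.5e-05) and 2.90 ± 0.32 (adjusted p = 3.52e-09).

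CDKN1B (chr5:59731224-59735831), a CDK inhibitor of quiescent cells, rose once and partly returned. It was at 9.18 to 11.8 CPM on Day 8 (median 10.5), 20.4 to 31.2 CPM on Day 10 (median 24.3) and 16.0 to 25.1 CPM on Day 12 (median 19.1). Day 8 lay below both later days without overlap. The log2 fold changes were 1.21 ± 0.08 (adjusted p = 3.67e-13) and -0.33 ± 0.08 (adjusted p = 0.000939), and the second was -0.12 (adjusted p = 0.266) with library size alone. CDKN2C, an inhibitor of CDK4 and CDK6, rose to Day 10 (0.86 ± 0.16, adjusted p = 5.6e-05), with medians of 5.44, 9.89 and 10.6 CPM.

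WEE1 (chr2:49880416-49894509), the kinase that blocks CDK1 by phosphorylation, rose at the later step. It was at 16.6 to 22.4 CPM on Day 8 (median 18.7), 18.9 to 37.9 CPM on Day 10 (median 21.5) and 17.8 to 161 CPM on Day 12 (median 71.1). Embryo d12_f_245 had the lowest Day 12 level, and the other Day 12 embryos lay above every embryo of Days 8 and 10. The log2 fold change from Day 10 was 1.72 ± 0.24 (adjusted p = 2.13e-07), or 3.30-fold, against 0.27 ± 0.23 for the earlier interval (adjusted p = 0.323). The log2 ratio of WEE1 to CDC25A, which act on the same site of the CDK, shifted by 1.60 and then by 1.63, with no overlap of Days 8 and 10.

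RB1 (chr11:19186754-19317642), the pocket protein that holds E2F factors, had low levels with medians of 1.40, 2.11 and 5.00 CPM. It rose by 0.81 ± 0.25 to Day 10 (adjusted p = 0.00747) and by 0.87 ± 0.25 to Day 12 (adjusted p = 0.00325). Without embryos d10_m_453 and d10_f_454 the earlier change was 0.53 (adjusted p = 0.0729). LPAR6, which lies within the annotated span of RB1, rose by 1.68 on the log2 scale from Day 10 to Day 12.

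**Figure D4:**
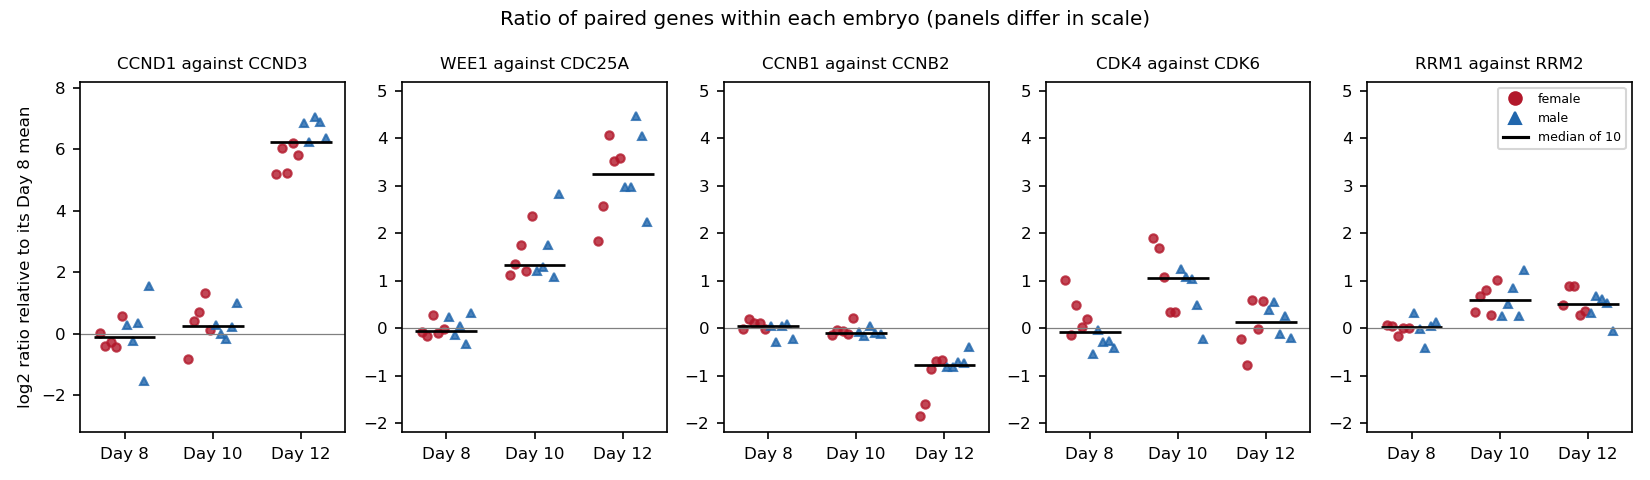
Log2 ratio of paired genes within each embryo, relative to the mean of the Day 8 embryos, by day (circles female, triangles male, lines the median of 10 embryos). CCND1 against CCND3 shifts by 5.87 from Day 10 to Day 12, WEE1 against CDC25A shifts at each step, CCNB1 against CCNB2 shifts on Day 12, CDK4 against CDK6 is highest on Day 10, and the RRM1 against RRM2 shift lies between Days 8 and 10.

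Embryos of a day differed in these genes, and the differences ran across whole groups of genes. The level of a group was taken as the mean over its genes of log2 CPM relative to the Day 8 mean of each gene. Replication genes had an SD of 0.092 between Day 8 embryos, 0.32 on Day 10 and 0.23 on Day 12. The means were -0.57 and -0.63 on the later days. On Day 10, d10_f_454 and d10_m_453 were lowest, at -1.09 and -1.10, and each was among the lowest 2 embryos for 13 of the 14 replication genes, while d10_f_433 was highest at -0.21. Embryo d10_f_454 was also lowest for 8 of the 11 mitosis genes, and d10_m_453 was highest for 3 of the 5 inhibitors. With both left out, the Day 10 mean of the replication genes was -0.43 ± 0.19 (SD, n = 8) and that of the inhibitors 0.91 ± 0.17, against 1.004 ± 0.26 with them. Then 9 of the 14 replication genes fell from Day 8 to Day 10, against 23.9% of all genes in that fit, and 4 of the 14 fell from Day 10 to Day 12, near the 27.7% of all genes, where MCM4 and CDC6 joined PCNA and GMNN. Over all 45 genes, MCM7, CDK4 and RB1 lost their call to Day 10. From Day 10 to Day 12, CCNB2, CDC20, MKI67 and E2F1 lost theirs, and MCM4, CDC6, CDK1 and CDC25A gained one.

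**Figure D5:**
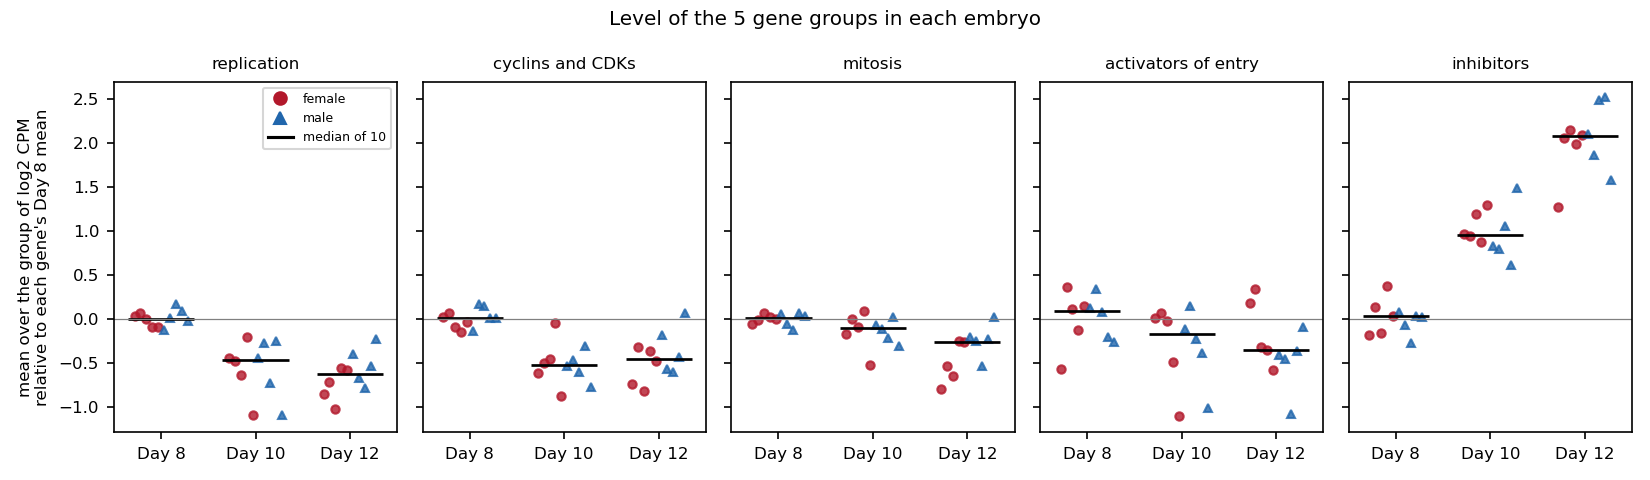
Level of the 5 groups of genes in each embryo, as the mean over the group of log2 CPM relative to each gene's Day 8 mean, by day (circles female, triangles male, lines the median of 10 embryos). Replication genes drop by Day 10 with d10_m_453 and d10_f_454 at the bottom, mitosis genes drop less, and inhibitors climb to a mean of 1.004 on Day 10 and 2.01 on Day 12.

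On Day 12, d12_m_307 was highest in replication genes (-0.22; highest for 10 of the 14), in cyclins and CDK (0.06) and in mitosis genes (0.02), and it had the lowest CDKN1A. Embryo d12_f_289 was lowest in replication genes (-1.02) and d12_f_245, the smallest library, in mitosis genes (-0.80) and inhibitors (1.27). Whether these embryos differed in age, size or litter was not tested. The median SD of log2 CPM over the 45 genes was 0.16, 0.32 and 0.39 on Days 8, 10 and 12, against 0.23, 0.29 and 0.45 over all genes and 0.17, 0.22 and 0.37 over all genes with more than 10 CPM. On Day 12 the set was thus below the first of these and above the second. The genes most even between embryos were ORC1 and CCNA2 on Day 8, AURKB and BUB1 on Day 10 and CDK4 and AURKA on Day 12.

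Female and male embryos of each day were compared in the table of that day, and no gene of the set passed an FDR of 0.05. On Day 8, 0 of 45 were called, where 0.658% of all genes were, and 1 gene had an unadjusted p under 0.05, against 4.59% of all genes. That gene was CDK6, at 32.7 ± 9.63 CPM in females and 45.6 ± 3.15 CPM in males (SD, n = 5 each), with an adjusted p of 0.662 by edgeR. On Day 10, 0 of 44 were called, against 0.223% of all genes, and 0 had an unadjusted p under 0.05, against 2.36% of all genes.

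On Day 12, 0 of 44 were called, against 0.123% of all genes. An unadjusted p under 0.05 was found for 10 genes, which is 22.7% and the same share as over all genes, 22.7%. Of the 44, 16 were higher in females by any amount. The median log2 fold change of females over males was -0.22, against -0.0014 over all genes. This direction was not tested for the set. KIF11, a spindle motor, was at 55.8 ± 24.8 CPM in females and 94.9 ± 14.6 CPM in males (adjusted p = 0.198 by edgeR). The females were split. With CPM scaled over all 30 embryos, d12_f_245, d12_f_271 and d12_f_289 were at 31.3 to 38.7 CPM. Embryos d12_f_297 and d12_f_299 were at 73.1 and 84.8 CPM, within the male range of 70.6 to 104.9 CPM. CCND1 was at 39.4 ± 11.4 CPM in females and 59.2 ± 12.0 CPM in males (adjusted p = 0.198 by edgeR). CCND3 was higher in females, at 46.5 ± 9.55 CPM against 35.5 ± 4.09 CPM (adjusted p = 0.203). The Day 12 embryos that were lowest in replication and mitosis genes, d12_f_245 and d12_f_289, were female and the highest, d12_m_307, was male. When all 30 embryos were fitted in 6 groups, 7 of the 45 genes were called on Day 12, where 20.3% of all genes were. KIF11 had the lowest adjusted p (0.0108 by edgeR). This fit shares 1 estimate of the spread over the days. The median SD of log2 CPM over all genes was 0.23, 0.29 and 0.45 on Days 8, 10 and 12, so its Day 12 p-values may be too small. In the test of whether the sex difference changed between days, no gene of the set passed, and the lowest adjusted p by edgeR was 0.137, for KIF11 between Days 8 and 12.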

How the data were processed

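The deposited values were raw read counts per NCBI gene identifier, without normalization, in 1 table of all embryos and 1 table for each day. Per the study's methods, the authors trimmed the reads, aligned them to the Sscrofa11.1 assembly and its NCBI gene models, and dropped genes of low CPM. Which aligner and counter were used, the strand setting and the CPM limit are not given in the sources used here. No per-sample column was left unused.

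CPM used TMM factors, and log2 levels used a prior count of 2. Day comparisons used 1 edgeR quasi-likelihood fit of 3 days over 13103 genes with Benjamini-Hochberg adjustment, and sex comparisons used the table of each day. SE is the log2 fold change over the square root of F. R 4.3.3, edgeR 4.0.16, limma 3.58.1, DESeq2 1.42.0, Python 3.11.15, numpy 2.4.6, pandas 2.3.3 and matplotlib 3.10.9 were used, and the fits were tested on simulated data.

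Gene positions came from the NCBI gene table of Sscrofa11.1, where MCM5 and CDC25A lie on unplaced scaffolds. No promoter or protein sequence was analysed here. The 45 genes, their groups, the wider lists and the pairs for ratios were chosen with earlier results of these data known, and the ratios carry no test. Genes with full values are DEG of at least 1 day comparison and the gene with the largest rise or fall of each group, and of each wider list up to 3 DEG with the largest rises and falls. Values given for other members, such as TYMS, were chosen after the data were seen.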

Additional observations from a re-analysis of the deposited data

Results flagged for a closer look

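In 8 of 135 sets of 10 embryos (45 genes on 3 days), 1 embryo lay far from the other 9, with a gap to its neighbour above the critical share of the range. For independent sets of normally distributed values, chance would flag about 1 in 20. These sets shared embryos and used CPM on a linear scale, so that rate may not hold here for high or low values. No cause was tested. On Day 12, d12_m_307 was high in GMNN (36.0 CPM, next highest 29.0 CPM) and in CCNA2 (104 CPM, next 65.6 CPM), and d12_f_245, the smallest library, was high in CDC20 (287 CPM, next 176 CPM). On Day 10, d10_m_453 was high in CDKN1B (31.2 CPM, next 25.8 CPM) and in WEE1 (37.9 CPM, next 27.6 CPM), and d10_f_433 was high in CCND2 (2.32 CPM, next 0.935 CPM). On Day 8, d08_m_111 was high in CCNB2 (55.5 CPM, next 40.4 CPM) and d08_m_136 in TOP2A (315.3 CPM, next 246 CPM). All 8 were the highest embryo of their day, and none was the lowest.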

How the results depend on the processing

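The alternatives were the robust GLM of the study, DESeq2, RLE factors, library size alone, a filter of 10 counts in 5 embryos, a sex term, fits of only 2 days, fits of only 1 sex and each embryo left out, with embryos d10_m_453 and d10_f_454 left out together and other prior counts for the ratios added after the data were seen. Of 5400 log2 fold changes of members, 97 lost and 53 gained their call, and 110 changed sign, none of them called in either fit. Leaving out d10_m_453 and d10_f_454 gave 2 DEG lower and 5 genes up for Day 12 against Day 10. Library size alone gave 7 DEG lower to Day 10, and 5 DEG higher and 7 genes down to Day 12. Over all genes it gave 811, 2396 and 2291, where the main fit gave 550, 1951 and 3552. Females alone gave 1 DEG higher and 14 genes down to Day 10, where all genes had 718 and 2232. To Day 12 they gave 3 DEG lower and 4 genes up, where all genes had 1064 and 3210. For Day 12 against Day 8 they gave 13 DEG lower, where all genes had 1660. The main fit had 1295, 3501, 1099, 4269 and 1368 over all genes, in that order. Males alone gave 1 DEG higher to Day 10 and 7 genes down to Day 12. All genes had 751 and 2817 in that fit, and 1295 and 3552 in the main fit. Fits of 1 sex use fewer embryos. Without 1 embryo, the DEG lower to Day 12 numbered 1 to 2, with 2 without d10_f_454 (Day 10) or d12_m_307 (Day 12). Over all genes those 2 fits gave 1077 and 1101 DEG lower. Between sexes, the robust GLM called 1 gene on Day 8 (CDK6, adjusted p = 0.0318) and 1 on Day 12 (KIF11, adjusted p = 0.0418). The share of all genes that it called was not computed here. The fit of all 30 embryos called 7 on Day 12, where 20.3% of all genes were called. All other counts stayed within 1.5 times their value. No paired analysis was possible because the labels do not give the sow of each embryo, although some males and females of a day shared a sow, and the groups share no replicate numbers. The search for promoter motifs and its alternative were not run. Counts of 20 or fewer, as for CCND2, limit what can be seen of the lowest genes.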

Other observations

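Wider lists of genes, without the 45, were looked at in the same edgeR fits. Over all genes, 26.7% fell and 29.4% rose from Day 8 to Day 10 at an FDR under 0.05, and 27.1% fell and 32.6% rose from Day 10 to Day 12. Of 53 further replication genes, 25 fell (47.2%) and 2 rose (3.77%) to Day 10, and 17 fell (32.1%) and 7 rose (13.2%) to Day 12. ORC6, the smallest subunit of the origin complex, fell from 44.3 ± 8.10 CPM (SD, n = 10) on Day 10 to 22.1 ± 6.70 CPM on Day 12 (log2 fold change -1.005, adjusted p = 6.64e-08). UHRF1, which brings the maintenance methyltransferase to newly copied DNA, rose from 12.8 ± 2.55 to 35.7 ± 7.30 CPM (1.47, adjusted p = 1.99e-11), and the polymerase epsilon subunit POLE4 from 25.4 ± 4.60 to 60.4 ± 8.78 CPM (1.25, adjusted p = 4.50e-12). Of 62 further mitosis genes, 14 fell (22.6%, below the share of all genes) and 12 rose (19.4%) to Day 10, and 28 fell (45.2%) and 4 rose (6.45%) to Day 12. FBXO5, an inhibitor of the anaphase-promoting complex, fell at both steps, from 56.3 ± 7.41 to 21.3 ± 7.42 and 8.66 ± 3.42 CPM (log2 fold changes of -1.40, adjusted p = 2.21e-06, and -1.28, adjusted p = 6.87e-06). LMNB1, a lamin of the nuclear envelope, fell from 575 ± 92.5 to 199.9 ± 64.3 CPM on Day 12 (-1.52, adjusted p = 4.86e-11).

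Of 58 further genes of cell cycle control, 26 fell (44.8%) and 15 rose (25.9%) to Day 10, and 18 fell (31.0%) and 14 rose (24.1%) to Day 12, so that the later falls and the earlier rises were near the shares of all genes. MYCN and MYC, transcription factors of growth, fell to Day 10, from 129.3 ± 14.9 to 49.3 ± 8.26 CPM (-1.39, adjusted p = 5.96e-11) and from 41.3 ± 5.03 to 15.8 ± 7.47 CPM (-1.38, adjusted p = 2.27e-06). CCNG2, a cyclin known for arrest, rose from 2.40 ± 1.28 to 11.11 ± 8.06 CPM (2.21, adjusted p = 2.36e-06). The stress gene GADD45A rose from 11.14 ± 2.14 to 37.5 ± 21.4 CPM (1.75, adjusted p = 4.66e-07). ANAPC11, a subunit of the anaphase-promoting complex, rose from 7.35 ± 1.29 to 16.8 ± 3.79 CPM (1.20, adjusted p = 7.44e-06). From Day 10 to Day 12, the antiproliferative gene BTG2 rose from 3.83 ± 1.31 to 34.1 ± 12.9 CPM (3.15, adjusted p = 6.80e-13) and TFDP2, a partner of E2F factors, from 5.99 ± 1.79 to 52.2 ± 14.6 CPM (3.12, adjusted p = 2.17e-15). GADD45B rose from 0.498 ± 0.216 to 3.42 ± 2.26 CPM (2.75, adjusted p = 4.09e-08). E2F7, a repressor of S phase genes, fell from 5.05 ± 2.79 to 0.821 ± 0.468 CPM (-2.55, adjusted p = 1.25e-06).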
